A study of Mus musculus with 1931 samples.

Results

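Carbonic anhydrases, aquaporins and the sodium pump handle acid, water and salt in epithelia, and 5 of these genes, *Car2*, *Car4*, *Aqp3*, *Aqp8* and *Atp1b1*, were described here in RtL-embryoids, mouse embryo-like structures, and in 2D cultures. They were chosen by their levels in these same cells, for differing between cell types, so their levels and folds are given as a description, without a test. They are 5 of 20999 genes in the deposited table. Cells were kept when at least 2500 genes had a value above 0, which left 982 of 1149 wells of the embryoids and 424 wells of the cultures, of 1931 wells in all.

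The embryoids were 1 pool, assembled from 3 ESC lines: Kermit ESCs, which carry GFP under control of Oct3/4, 5-Factor ESCs, in which doxycycline switches on *Ets2*, *Gata3*, *Eomes*, *Tfap2c* and *Cdx2*, and mCherry-marked iGATA6 ESCs, transduced with an inducible *Gata6*. The drug was present for 3 days (2 µg/ml) and removed before harvest, also in the 2D cultures of iTSC, made from 5-Factor ESCs, and iXEN cells, made from iGATA6 ESCs, while Kermit ESCs were kept in 2i/LIF. Single cells of the embryoids were sorted by GFP, mCherry and an antibody against CD40 onto plates 3, 4 and 5. The labels give the well but not the gate, and the groups used here are blocks of plate columns: columns 1-8 (314 cells kept, called Epi-like), columns 9-16 (315, VE-like, for visceral endoderm) and columns 17-24 (353, ExE-like, for extraembryonic ectoderm). ESC (142 cells), iTSC (141) and iXEN (141) were each sorted onto 1 further plate. Each condition was therefore 1 sample, the 3 plates are technical splits of 1 pool, and no p-value was computed. Block and plate position cannot be told apart, nor can 3D or 2D culture and plate.

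The blocks were checked against markers. All 7 Epi, 7 VE and 7 ExE markers were highest in the block of that name. The check was not fully independent of the design. *Cdx2*, *Eomes*, *Tfap2c* and *Gata3* in the ExE list are also genes that doxycycline switches on in 5-Factor ESCs. *Pou5f1* in the Epi list has the promoter that drives the sorted GFP. Their part was not tested, and the leading lists below use the same genes. *Pou5f1* and *Utf1* were also above 0 in 90.8% and 81.3% of VE-like cells (4.53 and 1.69 TP10k). Of 7 parietal endoderm genes 5 were also highest in the VE-like block, with *Sparc* at 59.9 TP10k. *Fst* was higher in the ExE-like than in the VE-like block (0.627 and 0.268 TP10k), and *Thbd* was near 0 in every group. The paper found its VE-like cells highly similar to primitive endoderm of embryos, and also reported visceral endoderm markers in them. The summed giant cell and fibroblast lists stayed at or below 0.00458 and 0.0468 TP10k in every block. Well by well, the leading list was that of the block in 313 of 314, 311 of 315 and 278 of 353 cells. In the ExE-like block 40 wells were led by the VE list and 35 by the Epi list, so several results there are also given without them. The median number of genes above 0 was 4823, 5348 and 5396 in the blocks and 8537 to 9093.5 in the cultures, a depth gap that touches every share of cells set across 3D and 2D.

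Carbonic anhydrases interconvert carbon dioxide and water with bicarbonate and a proton. CAR2 does so in the cytosol, and CAR4 is anchored to the outer face of the cell membrane, often in epithelia that move bicarbonate. Aquaporins are membrane channels for water, AQP3 also for glycerol and AQP8 also for ammonia and hydrogen peroxide. ATP1B1 is the beta-1 subunit of the sodium pump, which exports sodium and imports potassium and whose activity in trophectoderm drives fluid into the blastocyst cavity. Visceral endoderm is an absorptive epithelium rich in endocytic and ion transport proteins.

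In GRCm38, with positions from Gencode vM21, *Car2* lies at chr3:14886273-14900770 (plus strand), *Car4* at chr11:84957786-84966044 (plus), *Aqp3* at chr4:41092722-41098183 (minus), *Aqp8* at chr7:123462291-123468004 (plus) and *Atp1b1* at chr1:164437109-164458355 (minus), all protein coding. Of these genes 4 matched a promoter from RefSeq (GRCm38.p6), 250 bases before to 50 after the start. Those of *Car4* (chr11:84957504-84957803, plus), *Aqp8* (chr7:123462044-123462343, plus) and *Atp1b1* (chr1:164458306-164458605, minus) are shown because these genes were highest in the VE-like block and iXEN cells. Capitals mark GATA on either strand (GATA or TATC), the core that GATA factors read.
Car4: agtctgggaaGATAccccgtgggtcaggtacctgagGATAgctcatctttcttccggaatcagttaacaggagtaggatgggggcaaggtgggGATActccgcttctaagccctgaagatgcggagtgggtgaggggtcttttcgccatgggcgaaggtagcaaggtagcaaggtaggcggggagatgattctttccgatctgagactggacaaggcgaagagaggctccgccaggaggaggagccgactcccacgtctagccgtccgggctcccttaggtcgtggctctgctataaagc
Aqp8: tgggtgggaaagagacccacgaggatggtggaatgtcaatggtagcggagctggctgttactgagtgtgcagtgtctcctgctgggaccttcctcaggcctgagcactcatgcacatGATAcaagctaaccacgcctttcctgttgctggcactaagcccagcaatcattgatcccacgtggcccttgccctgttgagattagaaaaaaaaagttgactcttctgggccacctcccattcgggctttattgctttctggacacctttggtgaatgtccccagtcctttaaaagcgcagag
Atp1b1: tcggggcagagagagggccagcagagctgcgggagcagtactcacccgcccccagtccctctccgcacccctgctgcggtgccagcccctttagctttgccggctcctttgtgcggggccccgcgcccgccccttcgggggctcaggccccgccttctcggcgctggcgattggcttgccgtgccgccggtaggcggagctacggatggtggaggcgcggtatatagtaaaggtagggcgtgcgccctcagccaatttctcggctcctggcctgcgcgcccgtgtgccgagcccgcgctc
The core occurred 3 times in *Car4*, once in *Aqp8* and 0 times in *Atp1b1*. The promoter of *Aqp3*, a gene highest in ESC, is not shown and held it once, like that of *Aqp8*. At least 1 copy was found in 57.9% of all 32851 promoters of this length and 3 or more in 12.6%. The longer GATAA, in 25.4% of promoters, was in none of the 4. Base composition differed among the genes: *Atp1b1* had 71.0% GC and 31 CpG, *Aqp3* 64.0% and 21, *Car4* 57.3% and 15, and *Aqp8* 52.0% and 6. The median promoter had 52.7% and 7. A match of letters is a description and shows no binding.

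*Aqp8* had the sharpest pattern. Levels are mean TPM per cell rescaled to a sum of 10000 (TP10k), cells at 0 included, and being corrected for transcript length they can be compared between genes. *Aqp8* averaged 4.12, 3.63 and 3.90 TP10k on plates 3, 4 and 5 in the VE-like block and was above 0 in 85.7% of its cells (95% exact interval 81.4 to 89.4%, which like all intervals here covers counting error only). In the Epi-like block it was above 0 in 0 of 314 cells, which allows a share of up to 0.955% by 3 counts of the total and up to 1.17% by the exact interval. No Epi-like plate thus came near a VE-like one, and no fold is given against a group at 0. ESC and iTSC held it in 1.41% and 2.84% of cells, at 0.00383 and 0.00253 TP10k.

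In iXEN cells, the 2D counterpart of the VE-like block, *Aqp8* reached 1.01 TP10k and 51.1% of cells (42.5 to 59.6%), so about every other cell lacked it although iXEN cells had more genes detected. The log2 fold of VE-like over iXEN was 1.92, 1.74 and 1.84 on the 3 plates (on means + 0.1 TP10k, as are all folds). The VE-like cells in which it was found also had more of it, with a median of 3.92 TP10k against 0.831 in the positive iXEN cells. This median too was compared at unequal depth, whose part was not tested. The 7 VE markers together summed to 21.9 to 23.6 TP10k on the VE-like plates and 30.9 in iXEN, and 3 of them, *Dkk1*, *Gata4* and *Sox7*, had the higher mean in VE-like cells.

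The ExE-like block lay between, at 0.377, 0.347 and 0.182 TP10k and 9.92% of cells (7.0 to 13.5%). Within it, *Aqp8* was above 0 in 14 of the 40 wells led by the VE list and in 20 of the 278 wells led by the ExE list. The means were 1.48 and 0.170 TP10k. VE markers and *Aqp8* thus moved together in this block, and the part of such wells in its level was not tested beyond leaving them out.

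**Figure D1:**
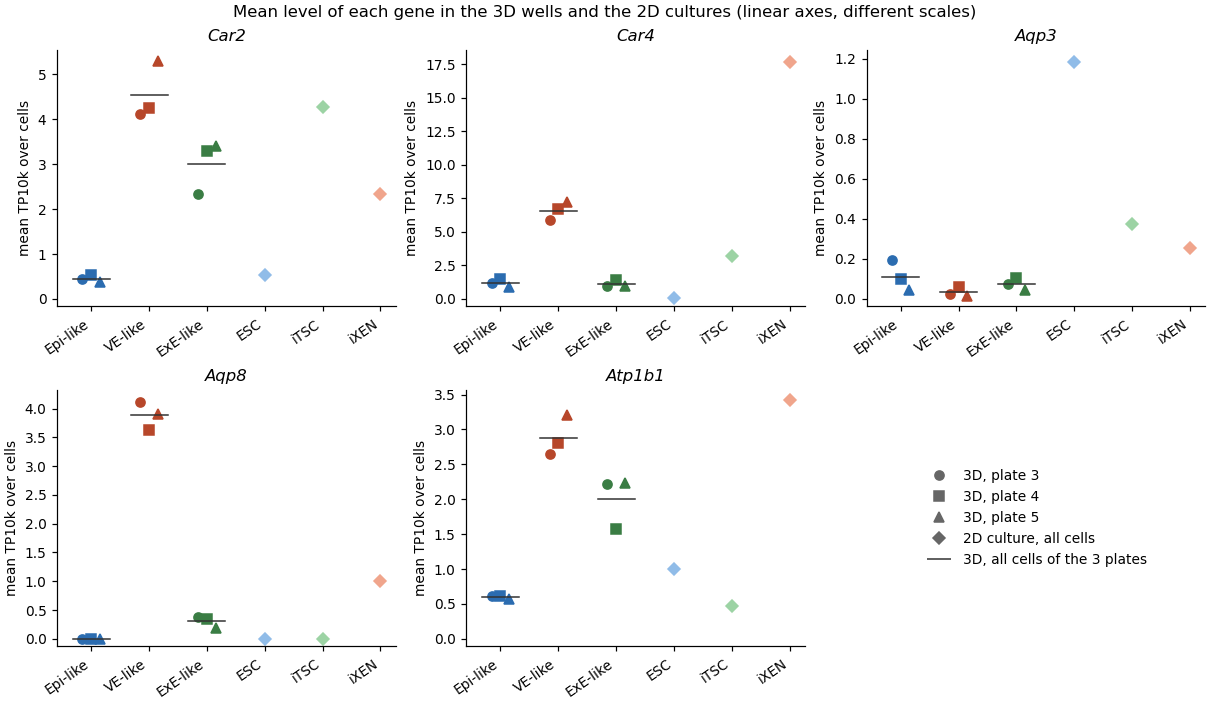
Mean level (TP10k, linear axis, a scale per gene) of the 5 genes in the 3 blocks of embryoid wells, with 1 symbol per plate and a line at the mean of all cells, and in the 3 cultures (diamonds). *Aqp8* sits at 3.63 to 4.12 on the VE-like plates and at 0 on the Epi-like ones, *Car4* is highest in iXEN at 17.7, and *Aqp3* is highest in ESC at 1.19.

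*Car4* had the highest mean of the 5 genes in VE-like and iXEN cells, and also in Epi-like cells. It averaged 5.89, 6.69 and 7.22 TP10k on the VE-like plates, 1.17, 1.49 and 0.910 on the Epi-like and 0.985, 1.43 and 0.997 on the ExE-like plates. The VE-like plates did not overlap the others, while the Epi-like and ExE-like plates did. The cultures spread further: iXEN had 17.7 TP10k, iTSC 3.18 and ESC 0.0611. *Car4* was above 0 in 99.3% of iXEN, 77.3% of iTSC and 3.52% of ESC cells.

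The ExE-like level of *Car4* came largely from few cells. It was above 0 in 16.7% of cells (13 to 21%), fewer than the 31.5% (26.4 to 37.0%) of the Epi-like block at nearly the same mean. The 40 wells led by the VE list averaged 6.20 TP10k, with *Car4* found in 16 of them, and the 278 wells led by the ExE list 0.431. Without the wells whose leading list was another one, the log2 fold of ExE-like over Epi-like moved from -0.06 to -1.28, and that of VE-like over ExE-like from 2.43 to 3.66. The first of these still did not reach 2-fold on each plate.

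*Car2* was high in both extraembryonic blocks. It averaged 4.13, 4.26 and 5.30 TP10k on the VE-like plates, 2.35, 3.30 and 3.40 on the ExE-like plates and 0.433, 0.539 and 0.372 on the Epi-like plates. The 3 blocks did not overlap. The cultures had 4.28 TP10k in iTSC, 2.34 in iXEN and 0.527 in ESC. The means of VE-like and iTSC cells did not differ beyond the spread of the plates, nor did those of ESC and Epi-like cells. The shares of the latter did differ, with *Car2* above 0 in 82.4% of ESC and 29.6% of Epi-like cells, at unequal depth.

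The distribution of *Car2* differed more than its mean. In the VE-like block it was above 0 in 97.1% of cells (94.6 to 98.7%) with a median of 3.72 TP10k. In the ExE-like block it was found in 48.2% (42.8 to 53.5%), the median cell was at 0, and the positive cells had a median of 4.75 TP10k, above the 3.82 of positive VE-like cells. In the 278 wells led by the ExE list alone the share was 47.5%. In iTSC 96.5% of cells had *Car2*. Across the 353 ExE-like cells *Car2* and *Atp1b1* were inversely related (Spearman's rho -0.45), a relation described within single wells that share plates and scaling. It was -0.25 in iTSC and 0.06 in VE-like cells. The relation was not computed without the ExE-like wells led by another list, and their part in it was not tested.

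**Figure D2:**
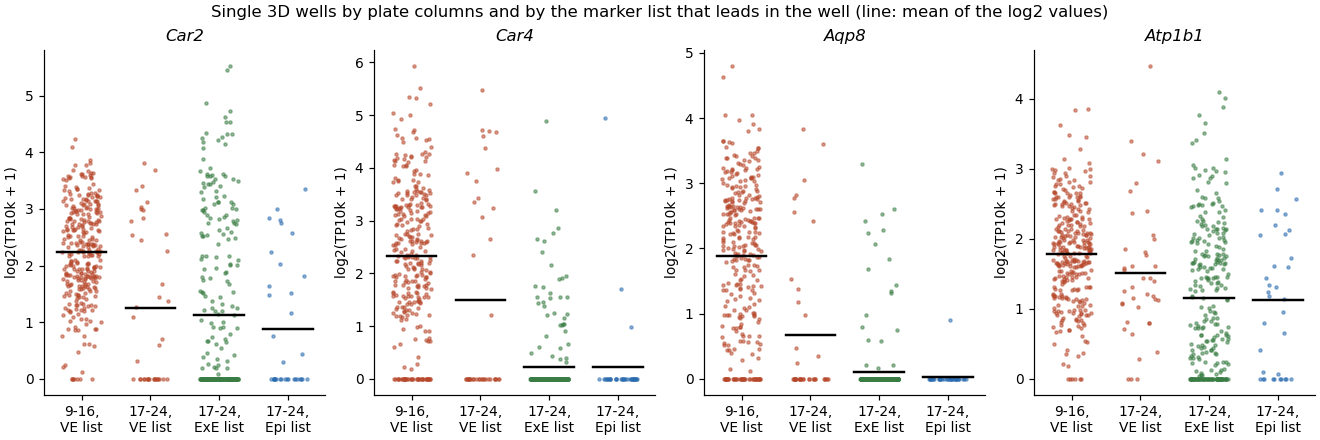
Values of *Car2*, *Car4*, *Aqp8* and *Atp1b1* (log2(TP10k + 1)) in single wells, for VE-like wells (columns 9-16) led by the VE list and for ExE-like wells (columns 17-24) by leading list, with a line at the mean of the plotted values. *Car4* and *Aqp8* are high in part of the 40 ExE-like wells led by the VE list. *Car2* is at 0 in many of the 278 wells led by the ExE list and ranges from low values to above the VE-like wells in the rest.

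*Atp1b1* was found in every group. It averaged 2.65, 2.81 and 3.21 TP10k on the VE-like plates, 2.22, 1.58 and 2.23 on the ExE-like and 0.611, 0.620 and 0.576 on the Epi-like plates. These did not overlap, and VE-like exceeded ExE-like cells by less than 2-fold. iXEN cells had the highest level, 3.42 TP10k, and 100% of them had *Atp1b1*. iTSC had the lowest, 0.463 TP10k, below ESC at 1.0.

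ExE-like cells and iTSC thus stood on opposite sides of ESC for *Atp1b1*. The paper considers the ExE-like compartment most likely to come from 5-Factor ESCs, the line from which iTSC were made. The log2 fold of ExE-like over iTSC was 2.04, 1.58 and 2.05 on plates 3, 4 and 5. Without wells led by another list it was 2.23, against 1.91 with them.

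*Aqp3* was the only one of the 5 genes that was highest in ESC. It had 1.19 TP10k and was above 0 in 92.3% of ESC (86.6 to 96.1%), with 0.374 TP10k and 51.1% in iTSC and 0.256 TP10k and 31.2% in iXEN. In the embryoids it was near the limit of detection: 0.196, 0.0999 and 0.0426 TP10k on the Epi-like plates, at most 0.104 on an ExE-like and 0.0582 on a VE-like plate. The blocks overlapped. The log2 fold of Epi-like over ESC was -2.12, -2.68 and -3.17. Among Epi-like cells, 34 of 314 had *Aqp3*.

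**Figure D3:**
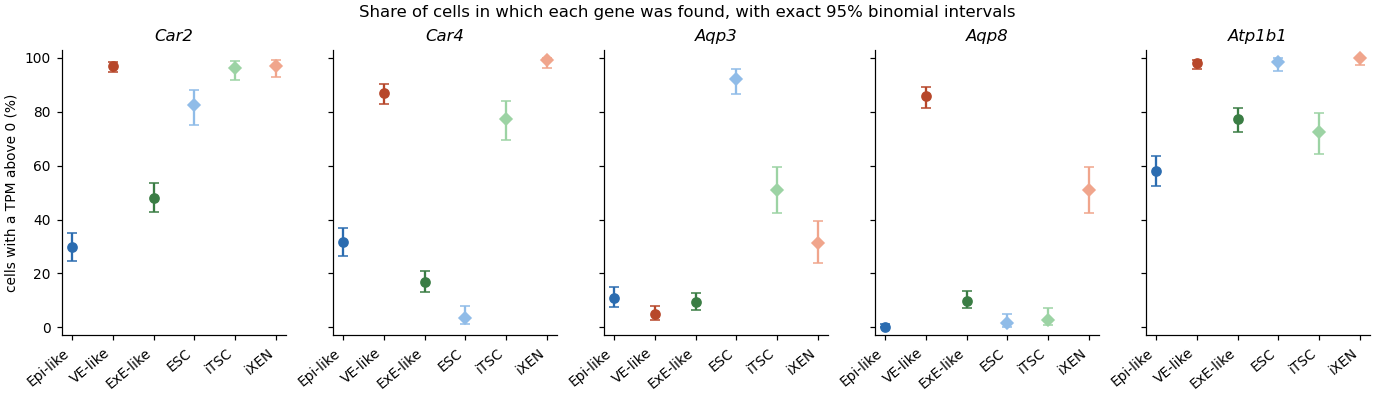
Share of cells (%) with a value above 0 for each gene in the 3 blocks (circles) and the 3 cultures (diamonds), with exact 95% binomial intervals for counting error. *Aqp3* falls from 92.3% in ESC to 10.8% in the Epi-like block, and *Car2* is in 48.2% of ExE-like against 96.5% of iTSC cells.

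To set the 5 genes beside all others, a gene was counted as changed when 1 of the groups compared had it in 10% of cells or more and its means differed at least 2-fold, between blocks or from a block to a culture also on each plate in the same direction. Between VE-like and Epi-like cells *Car2*, *Car4*, *Aqp8* and *Atp1b1* were higher and 0 of the 5 lower, where 11% of 10662 genes changed. ExE-like cells were higher than Epi-like in *Car2* and *Atp1b1*, at a background of 6.74%. VE-like exceeded ExE-like cells in *Car4* and *Aqp8*, at 6.79%. *Aqp8* or *Aqp3* were not counted where both groups stayed under 10% of cells. Since the genes were chosen by these contrasts, nothing is read from the counts.

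From 2D to 3D the 5 genes moved in both directions. In Epi-like cells against ESC *Car4* was higher (log2 fold 3.00) and *Aqp3* lower (-2.60), where 2.74% of genes changed. In VE-like cells against iXEN *Aqp8* was higher (1.84), and *Car4* (-1.42) and *Aqp3* (-1.42) lower, where 1.4% changed. In ExE-like cells against iTSC *Atp1b1* was higher (1.91), and *Car4* (-1.41) and *Aqp3* (-1.45) lower, where 3.74% changed. *Car2* did not reach 2-fold on all plates in any of the 3 lineages, with values from -0.84 to 1.15 on single plates.

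Among the cultures, iXEN cells were higher than ESC in 4 of the 5 genes and lower in *Aqp3*, at a background of 14.2% of genes changed. iTSC were higher than ESC in *Car2* (log2 fold 2.80) and *Car4* (4.35) and lower in *Aqp3* (-1.44), at 8.99%. iXEN exceeded iTSC in *Car4* (2.44), *Aqp8* (3.44) and *Atp1b1* (2.64), at 10.5%. Cultures have no plates to compare, so these counts rest on 1 value each. For *Car4* the ESC level was 0.0611 TP10k, below the pseudocount of 0.1, and 0.00514 in cells with at least 4000 genes.

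**Figure D4:**
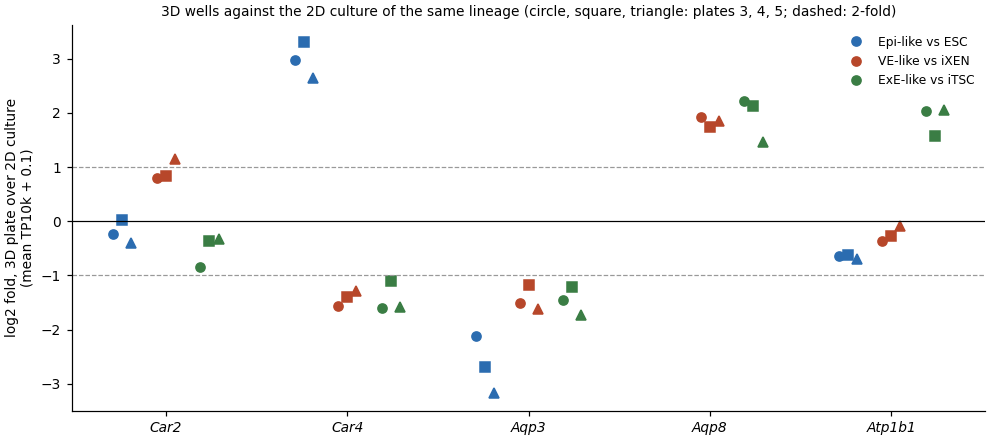
The log2 fold of each embryoid plate (circle, square and triangle for plates 3, 4 and 5) over the 2D culture of its lineage, for each gene, with dashed lines at 2-fold. *Car4* lies above 0 for Epi-like over ESC and below 0 in the other lineages, *Aqp3* lies below 0 in all, and *Aqp8* has no point for Epi-like cells, where it was at 0.

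Within each family the genes took different shares. Of the summed level of the 15 carbonic anhydrases in the table, *Car4* made up 85.1% in iXEN, 56.7% in VE-like cells (55.7 to 57.7% over plates), 48.1% in Epi-like cells and 4.66% in ESC. *Car2* led in the ExE-like block with 64.5% (60.7 to 68.1% over plates), in iTSC with 54.4% and in ESC with 40.1%. The family summed to 20.8 TP10k in iXEN, 11.6 in the VE-like block, 7.86 in iTSC, 4.65 in the ExE-like and 2.47 in the Epi-like block, and 1.31 in ESC.

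Of 12 aquaporins, *Aqp8* made up 94.1% of the VE-like level (93.6 to 94.5% over plates) and 68.3% in iXEN, and *Aqp3* 90.5% in ESC and 65.5% in iTSC. The Epi-like block had the lowest sum, 0.267 TP10k, mostly of *Aqp11* at 42.9% (35.4 to 47.5% over plates) and *Aqp3* at 41.7% (27.6 to 46.9%), with *Mip* at 28.8% on plate 5.

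Of the 3 beta subunits of the pump, *Atp1b1* made up 73.5% in VE-like cells (72.4 to 74.9% over plates), 77.3% in iXEN and 53.4% in the ExE-like block, where it led on plates 3 and 5 but not on plate 4 (55.9, 46.8 and 56.7% on plates 3, 4 and 5). *Atp1b3* led in the other groups, with 75.9% in iTSC, 65.1% in Epi-like cells and 54.4% in ESC. *Atp1b3* itself moved little, from 1.0 to 1.74 TP10k across the 6 groups.

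**Figure D5:**
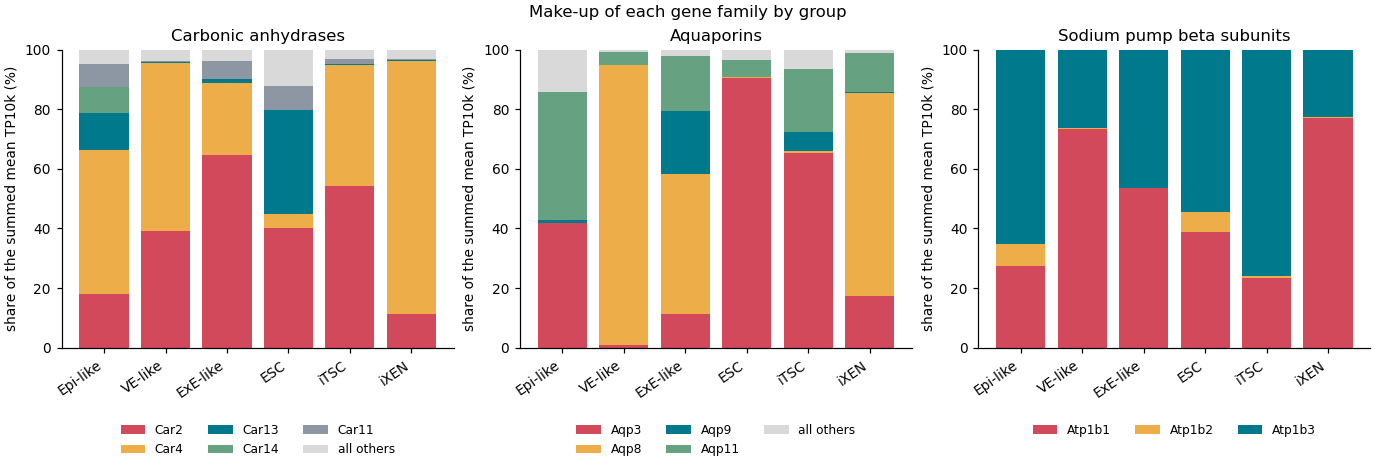
Share (%) of each gene in the summed mean TP10k of its family, as stacked bars for the 6 groups: 15 carbonic anhydrases, 12 aquaporins and 3 sodium pump beta subunits. *Aqp8* fills 94.1% of the VE-like aquaporin bar and *Aqp3* 90.5% of the ESC bar, while *Atp1b3* exceeds *Atp1b1* in Epi-like cells, ESC and iTSC.

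The other carbonic anhydrases were low. Of 14 listed, 13 were in the table and 8 were tested between VE-like and Epi-like cells, of which *Car13* and *Car14* were lower and 0 higher, where 11% of all genes changed. *Car13*, a cytosolic enzyme, was at 0.310 TP10k in Epi-like cells, 0.461 in ESC and 0.0206 in the VE-like block. *Car14*, a membrane-bound enzyme, was at 0.218 TP10k (0.190 to 0.265 over plates) in the Epi-like block and at most 0.0215 in any other group, ESC included. *Car11*, a related protein without enzyme activity, peaked at 0.275 TP10k in the ExE-like block and *Car7*, cytosolic, at 0.277 in iXEN. Neither changed between blocks by the rule.

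Of the 10 other aquaporins 1 to 3 were tested between blocks. *Aqp9*, a channel for glycerol as well as water, was higher in ExE-like cells than in the other blocks, at 0.139 TP10k (0.133 to 0.145 over plates) and 20.7% of cells against 0.00317 in Epi-like and 0.000832 in VE-like cells. *Aqp11*, an intracellular aquaporin, had 0.0743 to 0.196 TP10k in the 6 groups, and *Mip*, known from the eye lens, at most 0.0271.

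*Fxyd6*, a regulator of the sodium pump, was lower in VE-like than in Epi-like cells. It was at 0.0173 TP10k in VE-like cells (0.00239 to 0.0305 over plates) and 0.0556 in iXEN, against 0.818 to 1.52 in the other groups, a pattern opposite to that of *Atp1b1* in endoderm.

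Bicarbonate, proton and chloride transporters and their partners changed in both directions: of 31 genes 22 were tested between VE-like and Epi-like cells, with 5 higher and 2 lower, where 11% of all genes changed, and a median log2 fold of 0.13 against -0.04 over all genes. *Clic1*, a chloride channel protein, rose from 1.54 to 1.56 TP10k on the Epi-like plates to 7.30 to 8.01 on the VE-like. *Slc9a3r1*, a scaffold of apical transporters, had 0.740 TP10k in Epi-like, 3.54 in VE-like and 4.69 in iXEN cells. *Slc16a1*, a lactate and proton carrier, was at 0.351 TP10k in Epi-like, 1.96 in VE-like and 1.5 in ExE-like cells. *Clic6* was at 0.559 TP10k in VE-like and 1.22 in iXEN cells, and *Bsg*, the chaperone of lactate carriers, was high throughout, at 8.57 to 18.6 TP10k.

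The proton pump (V-ATPase) acidifies endosomes and lysosomes. Of its 22 subunits 17 were tested between VE-like and Epi-like cells, with 8 higher and 0 lower, where 11% of all genes changed, and a median log2 fold of 0.93 against -0.04 over all genes. Between VE-like and ExE-like cells 3 of 17 were higher and 0 lower, at 6.79%. Between iXEN and ESC 12 of 19 were higher and 0 lower, at 14.2%, with a median of 1.23 against -0.0049. *Atp6v0a1* went from 0.152 TP10k in Epi-like to 1.38 in VE-like cells, *Atp6v0d1* from 1.49 to 6.32, *Atp6v0b* from 4.48 to 15, *Atp6v0c* from 5.69 to 19.1 and *Atp6v1g1* from 4.05 to 10.5. Between ExE-like and Epi-like cells 0 of 17 passed the 2-fold rule, where 6.74% of all genes did, although the median was 0.55 against 0.07 over all genes.

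The genes most like each member were sought over 12 points, 3 blocks on 3 plates and 3 cultures, among 14182 genes. By Pearson's r of log2 levels these were *Runx1*, *Atf3* and *Egflam* for *Aqp8* (0.988 to 0.989). For *Atp1b1* they were *Shtn1*, *Oat* and *Plscr1* (0.963 to 0.970), for *Car2* *2200002D01Rik*, *Commd7* and *Fgfr4* (0.972 to 0.985), for *Car4* *Nectin2*, *Chid1* and *Fhl1* (0.949 to 0.971) and for *Aqp3* *Dut*, *Pim3* and *Xlr4b* (0.920 to 0.939). Plates of a block are splits of 1 pool, so the points are few in kind and such values describe the pattern only. *Runx1*, a transcription factor, followed *Aqp8* at 0.403 TP10k in VE-like, 0.205 in iXEN and 0.0636 in ExE-like cells. Among the 5 genes themselves *Aqp8* and *Atp1b1* were most alike (0.88), and *Aqp3* was negatively related to each of the others (-0.37 to -0.52).

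In the VE-like block 70.2% of cells had 4 of the 5 genes above 0, against 3.97% in the ExE-like and 0.955% in the Epi-like block. Among the cultures it was 41.8% in iXEN, 29.1% in iTSC and 4.23% in ESC, and 19.9% of iXEN cells had all 5. Such counts follow from the share of each gene, and the genes were chosen by their levels, so nothing is read from them. Within the VE-like block the levels did not rise and fall together from cell to cell. There rho ran from -0.16 to 0.11 over the 10 pairs, also where detection was nearly complete. In iXEN cells *Aqp8* and *Atp1b1* were related at 0.45 and *Aqp3* and *Atp1b1* at 0.38. Within groups, rho of each gene with the number of genes detected lay between -0.10 and 0.24.

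Some levels also differed between subsets of a block. Of the VE-like cells, 79 with *Nodal* or *Lefty1* above 0 had more *Car4* than the other 236, at 8.86, 9.57 and 9.77 TP10k against 4.74, 5.81 and 6.43 on the 3 plates, with 5524 and 5252.5 genes in the median, while *Aqp8* averaged 3.59 and 3.98. Of the ExE-like cells, 247 with at least 2 of *Cdx2*, *Elf5*, *Eomes* and *Esrrb* above 0 had more *Car2* than the other 106 (2.56, 4.12 and 4.43 against 1.62, 1.72 and 1.35 TP10k), at 5686 and 4778.5 genes. They had less *Car4* (0.381 against 2.89 TP10k) and less *Aqp8* (0.207, 0.0637 and 0.120 against 0.95, 0.891 and 0.307 on the 3 plates). Of the Epi-like cells, 168 with *Otx2* had 1.67 TP10k of *Car4* against 0.641 in the other 146, and 0.0460 of *Aqp3* against 0.187, at 14 and 20 cells above 0. Among the 278 ExE-like wells led by the ExE list the same split gave 3.72 TP10k of *Car2* in 231 cells against 0.690 in 47, and 0.115 of *Aqp8* against 0.441, the latter from 6 cells. For *Car4* the mean and the share went opposite ways, with 0.300 TP10k and 15.6% of the 231 cells against 1.08 TP10k and 8.51%, or 4 of the 47. The subsets were split by detection and differ in depth, whose part was not tested.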

How the data were processed

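Single cells were sequenced with SMART-seq2, which copies mRNA along its length and adds no molecular identifiers. The authors deposited TPM, made with kallisto on GRCm38 (Gencode) and summed per gene, without mitochondrial, ribosomal and pseudogenes. TPM hold no read number, so depth was taken as the number of genes above 0, and cells could not be thinned.

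Of 1931 wells 39 held no values, and 525 in all, these included, had fewer than 2500 genes above 0 and were left out. TPM were rescaled per cell to a sum of 10000 (TP10k) and averaged with zeros. Fold changes used a pseudocount of 0.1 TP10k. Shares have exact Clopper-Pearson 95% intervals. A well's leading list was that with the highest mean ln(TP10k + 1), scaled by each gene's SD over embryoid cells. Blocks of columns follow the sort as given for the members, not the labels. The members and the gene lists were chosen with earlier results of these data known. Named genes are the members, the 3 most similar to each, and per list the 3 highest in level and the 3 with the largest change between blocks. Python 3.11.15, numpy 2.4.6, pandas 2.3.3 and scipy 1.17.1 were used. Alternatives were other minimum numbers of genes, detection from 1 TPM, deposited TPM, trimmed means, another pseudocount and marker-matched wells. A window of 5000 to 9000 genes per cell, other share filters and leaving out each plate were also used. The window did not match depth between 3D and 2D. Its medians were 5667.5, 6092 and 6052.5 genes in Epi-like, VE-like and ExE-like cells. In ESC, iXEN and iTSC they were 8664.5, 8278.5 and 7996. Some genes of the sodium pump list are not reported here.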

Additional observations from a re-analysis of the deposited data

Results flagged for a closer look

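The difference in *Car4* between embryoid cells and the 2D culture of their lineage went in opposite directions between lineages. Culture format, medium, plate and depth cannot be told apart in it. On all 3 plates *Car4* was higher in Epi-like cells than in ESC (log2 fold 3.00), and on all 3 plates it was lower in VE-like cells than in iXEN (-1.42) and in ExE-like cells than in iTSC (-1.41). With 1 sample per condition the difference was not tested. *Car4* was above 0 in 5 of 142 ESC, so the first value rests on a level near 0 in that culture.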

How the results depend on the processing

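With 1 sample per condition nothing here measures biological spread, and 3D and 2D also differ in plate and depth. Of 45 calls (5 genes in 9 comparisons), 39 were unchanged under all 13 alternatives, 0 turned direction, and of 351 fold values 309 stayed within 1 SD over the plates. Among those that changed, *Aqp3* in VE-like cells against iXEN fell below 2-fold on a plate or overall with at least 4000 genes per cell (log2 fold -1.13), with deposited TPM (-1.06) and without the highest 5% of cells (-0.89). The number of the 5 genes changed between ExE-like cells and iTSC fell from 3 to 1 with deposited TPM and a pseudocount of 10 TPM, and likewise to 1 with 5000 to 9000 genes per cell, where *Car4* (-1.22 and -1.36) and *Aqp3* (-1.09 and -1.45) no longer held on each plate, and *Aqp3* also missed it in wells led by their block's list (-1.35). *Atp1b1* passed 2-fold below ESC in iTSC under 5 alternatives (-1.0 to -1.34, against -0.97), and *Aqp8* passed the share limit in ExE-like cells, against Epi-like cells and iTSC, with no share filter or without plate 5. A pseudocount of 0.01 TP10k admits low genes and raised the number of all genes changed to 2185 (from 1178) for VE-like against Epi-like cells, 1515 (734) for ExE-like against Epi-like, 1533 (736) for VE-like against ExE-like, 1035 (359) for Epi-like against ESC, 515 (171) for VE-like against iXEN, 1344 (486) for ExE-like against iTSC, 4293 (1939) for iXEN against ESC, 3240 (1240) for iTSC against ESC and 3262 (1410) for iXEN against iTSC. Leaving out the highest 5% of cells moved the share of changed genes that were higher from 54.6% to 26.9% for Epi-like against ESC, from 29.8% to 15.9% for VE-like against iXEN and from 54.7% to 33.5% for ExE-like against iTSC. Deposited TPM moved it to 69.7% in the last, from 63.3% to 52.3% for iTSC against ESC and from 49.4% to 60.8% for iXEN against iTSC. The cause was not tested. No paired analysis was possible because the result comes from no test and each condition is 1 sample.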
